A study of Mus musculus with 12 samples.

Results

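Fatty acid synthesis, elongation and desaturation were followed through 10 genes linked to the transcription factor SREBP1: Srebf1, Acly, Acaca, Fasn, Elovl6, Scd1, Scd2, Fads1, Fads2 and Acsl3. The genes were taken by symbol from the 24015 gene rows of each count table, all 10 were found, and all 10 were among the 14356 genes with enough counts to be tested. RNA was sequenced from mouse embryoid bodies, which are aggregates of embryonic stem cells that differentiate in suspension. The design had 4 groups of 3 libraries: control and Trim33-deficient bodies on day 2, and control and Trim33-deficient bodies on day 2.5. Trim33 encodes a chromatin reader and ubiquitin ligase that acts in TGF-beta family signalling, and the series asked which genes differ when it is lost. Per the labels, the stem cell lines behind all 4 groups came from outbred mouse embryos homozygous for a Trim33-flox allele, and the UbcCreERT2 transgene, a tamoxifen-dependent Cre under a ubiquitin C promoter active in most cell types, was present as well. The lines had passed through 8 to 10 passages without feeder cells, in LIF and 2i, and deficiency was started with 4OH-Tamoxifen on day 1. The control libraries carry the label wildtype, and whether control cultures received tamoxifen or vehicle is not given in the sources used here.

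Fatty acids are built in the cytosol from acetyl-CoA. Acly makes acetyl-CoA from citrate, Acaca carboxylates it to malonyl-CoA, and Fasn joins these units into palmitate. Elovl6 lengthens palmitate, Scd1 and Scd2 place the first double bond in saturated chains, Fads1 and Fads2 desaturate polyunsaturated chains, and Acsl3 attaches CoA to long chains before they enter lipids. Srebf1 encodes SREBP1, a membrane-bound factor whose released part activates many of these genes, while the related SREBP2, from Srebf2, is best known for the sterol synthesis genes. Proliferating embryonic cells use the pathway to make membrane lipids.

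Library sizes lay between 10066338 and 16529627 counts assigned to genes, and the 10 genes together held 0.237 to 0.403% of them. Levels are given as CPM, which are counts scaled to a common library size with TMM factors, so that libraries align on the bulk of genes. A count of 3 corresponded to 0.178 to 0.318 CPM, far below every value of the 10 genes. The targeted gene behaved as labelled: Trim33 was 271 ± 8.55 CPM (SD, n = 3) in day 2 control and 66.0 ± 4.88 CPM in day 2 Trim33-deficient libraries, a log2 fold change of -2.03 ± 0.06 (SE; adjusted p = 1.00e-11, edgeR quasi-likelihood test), and -2.10 ± 0.06 on day 2.5 (adjusted p = 6.35e-12). In 3 libraries the RNA stood apart. Rn45s, a ribosomal RNA precursor, made up 7.87% of all counts for replicate 1 of the day 2 Trim33-deficient group, 11.9% for replicate 2 of the day 2.5 control group and 0.609 to 1.67% elsewhere. The offset of hypoxia and glycolysis genes from their mean over all libraries was 0.665 log2 units for replicate 2 of day 2 control, 0.425 for replicate 2 of day 2.5 control and between -0.398 and 0.104 for the others. Values without these 3 libraries are given where they change a call or move a called value by over 1.5 times. That fit was added after seeing the data, and each group concerned loses 1 library. It drops the day 2 control library that was highest in its group for 8 of the 10 genes. It also drops the day 2 Trim33-deficient library that was lowest in its group for 9. The day 2 differences of most of these genes therefore widen by construction, and small p-values of that fit are not separate support. Among 7 epiblast genes the summed level was 5272 to 5820 CPM in day 2 control, 4181 to 4590.2 in day 2 Trim33-deficient, 4630.5 to 5326 in day 2.5 control and 3198 to 3864 in day 2.5 Trim33-deficient libraries, so it went with genotype on both days. At an adjusted p under 0.05 by edgeR, 2 of these genes fell and 0 rose on day 2, and 4 fell and 1 rose on day 2.5. Of all genes tested, 5.94% rose and 3.90% fell on day 2, and 22.0 and 20.7% on day 2.5. The summed level of 10 primitive and visceral endoderm genes was 30.8 to 47.9 CPM over all libraries, with Ttr, Afp and Apoa1 at or near 0. On day 2.5 this sum was 36.4 to 47.9 CPM in control and 32.0 to 34.3 CPM in Trim33-deficient libraries. Single genes went both ways: of 7 tested, 2 rose on day 2.5, Sox17 (log2 1.84) and Gata6 (1.20), and 2 fell, among them Dab2 (-0.60). For 6 fibroblast genes the sum was 30.2 to 43.9 CPM in control and 22.5 to 29.3 CPM in Trim33-deficient libraries. Of 5 tested, 3 fell on day 2.5, among them Thy1 (-1.50) and Col1a1 (-0.57), and Col3a1 rose (1.07). For 6 adipocyte genes the sum was 2.63 to 6.58 CPM over all libraries, highest at 5.75 to 6.58 on day 2.5 without Trim33, and only 1 of them had enough counts to be tested. That gene, Cebpa, was not called on day 2 (log2 -0.07) and rose on day 2.5 (0.65, adjusted p = 0.0114, edgeR). Its day 2.5 call was lost without day 2.5 control replicate 3. The part of these cell type and RNA differences in the results below was not tested, and in bulk RNA fewer cells of a type and less RNA per cell cannot be told apart.

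RefSeq promoter windows, 250 bases before to 50 after an annotated start on GRCm38.p6, were found for 7 of the 10 genes, and 4 are printed because these genes carry the changes described below or show a contrast in motifs. They were searched on both strands for CCAAT, bound by NF-Y, for GGGCGG, bound by Sp1, for CACGTG, an E-box, and for TCACNCCAC, a sterol response element. Capitals mark the matches, on whichever strand they lie, and each sequence runs 5′ to 3′ on the strand of its gene. Fasn lies at chr11:120824498-120824797 and Acly at chr11:100527951-100528250, both on the minus strand, Fads2 at chr19:10101454-10101753 on the minus strand and Elovl6 at chr3:129532136-129532435 on the plus strand.
Fasn: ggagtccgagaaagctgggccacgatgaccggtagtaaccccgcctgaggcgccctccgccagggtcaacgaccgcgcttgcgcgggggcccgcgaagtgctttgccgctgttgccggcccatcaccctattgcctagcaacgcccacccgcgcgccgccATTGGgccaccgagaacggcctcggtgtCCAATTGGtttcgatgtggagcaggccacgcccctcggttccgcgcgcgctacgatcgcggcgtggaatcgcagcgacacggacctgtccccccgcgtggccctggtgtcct
Acly: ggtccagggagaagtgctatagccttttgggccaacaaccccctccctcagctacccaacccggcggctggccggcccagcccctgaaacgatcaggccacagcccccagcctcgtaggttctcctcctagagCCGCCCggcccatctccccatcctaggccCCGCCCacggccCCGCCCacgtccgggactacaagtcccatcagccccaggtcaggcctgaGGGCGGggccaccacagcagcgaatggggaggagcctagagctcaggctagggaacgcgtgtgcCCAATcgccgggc
Fads2: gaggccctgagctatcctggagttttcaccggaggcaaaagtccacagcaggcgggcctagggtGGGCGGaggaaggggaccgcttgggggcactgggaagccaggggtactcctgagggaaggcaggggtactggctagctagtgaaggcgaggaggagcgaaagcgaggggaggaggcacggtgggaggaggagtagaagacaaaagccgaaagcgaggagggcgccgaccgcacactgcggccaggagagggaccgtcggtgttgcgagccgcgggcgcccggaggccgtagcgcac
Elovl6: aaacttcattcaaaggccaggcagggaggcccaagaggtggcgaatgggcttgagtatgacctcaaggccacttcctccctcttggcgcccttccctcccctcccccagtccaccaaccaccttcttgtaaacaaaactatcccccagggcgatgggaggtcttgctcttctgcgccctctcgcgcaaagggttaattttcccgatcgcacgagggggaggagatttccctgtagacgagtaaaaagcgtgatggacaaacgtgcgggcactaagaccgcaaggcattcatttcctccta
The Fasn window held 3 CCAAT matches, 2 of which overlap in CCAATTGG, and no GGGCGG. In the Acly window 4 GGGCGG matches and 1 CCAAT were found, in the Fads2 window 1 GGGCGG, and in the Elovl6 window none of the 4 motifs. The Acsl3 window held 1 CCAAT and 5 GGGCGG, and the Acaca window none. Srebf1 has 3 promoter windows in the table, with 1, 0 and 1 CCAAT and 0, 3 and 2 GGGCGG, and the deposited counts do not separate its transcripts. Neither TCACNCCAC nor CACGTG was present in any of these 9 windows. Among all 32851 promoter windows of the same length, 37.4% held CCAAT, 35.7% GGGCGG, 7.15% CACGTG and 1.24% TCACNCCAC. Scd1, Scd2 and Fads1 had no entry.

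To compare levels between genes, CPM was divided by exonic length in kilobases (GENCODE M21, a newer annotation than that of the counts). In day 2 control libraries the order began with Acly at 119 ± 6.39, Scd2 at 114 ± 15.7 and Fasn at 99.8 ± 13.3 CPM per kb (SD, n = 3), and neighbours among these overlapped. Fads2 followed at 43.8 ± 6.88 and Elovl6 at 34.9 ± 1.52, each apart from its neighbours. Scd1 at 23.7 ± 4.60, Fads1 at 23.0 ± 4.37 and Acsl3 at 21.1 ± 3.08 overlapped again, and Srebf1 at 15.0 ± 1.12 and Acaca at 2.85 ± 0.249 closed the order. Acly, Fasn and Scd2 held the first 3 places in every group. Scd2 led in day 2 Trim33-deficient libraries at 150 ± 19.2, and in day 2.5 Trim33-deficient libraries it stood at 99.2 ± 1.85, below Acly and Fasn at 107.8 ± 5.22. On day 2.5 Elovl6 stood above Fads2 in both genotypes, at 35.04 ± 1.54 against 30.4 ± 2.39 in control and 52.3 ± 1.72 against 37.3 ± 2.78 in Trim33-deficient libraries. Acaca is uncertain: 52.6% of its 50-base exonic windows, 4974 of 9464, also occur in another gene, and how reads that map to several places were counted is not given in the sources used here. The shared portion was at most 4.66% for each of the other 9 genes, with Scd1 and Scd2 sharing theirs among the Scd genes. Srebf1 overlaps Rai1 on the opposite strand by 109 exonic bases and Acsl3 overlaps Utp14b on the same strand by 244.

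**Figure D1:**
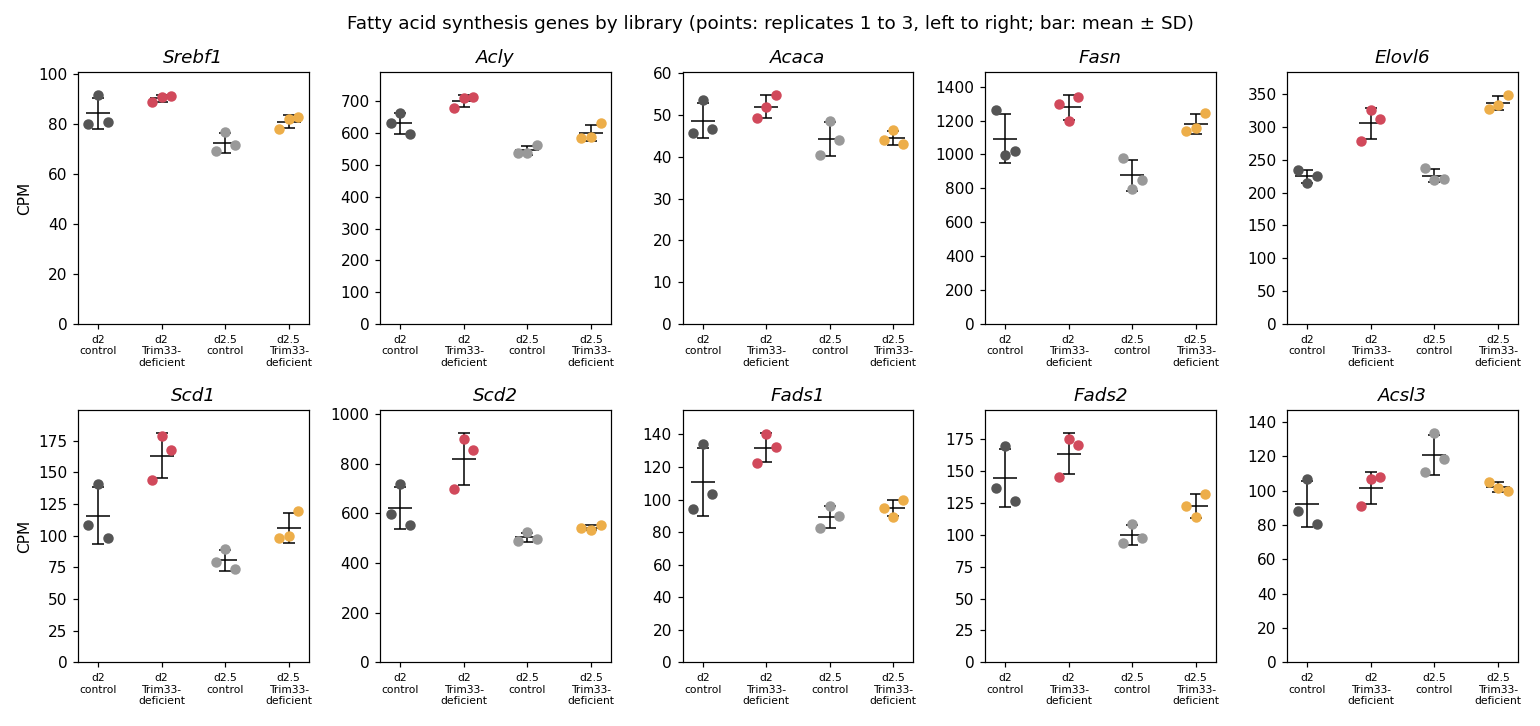
CPM of each of the 10 genes (vertical axes, linear, from 0) in the 12 libraries by group (horizontal axes; d2 and d2.5 are the days). Points are replicates 1 to 3 from left to right and bars are mean ± SD of 3 libraries; Elovl6 is higher in every Trim33-deficient library (279 to 349 CPM) than in any control library (215 to 237 CPM).

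Without Trim33, some of the 10 genes rose, each by less than 1.5-fold. On day 2 the elongase Elovl6 (1.36-fold) and the desaturases Scd1 (1.41-fold) and Scd2 (1.32-fold) rose, and no member fell. On day 2.5, 6 of the 10 rose: Srebf1, Acly, Fasn (1.35-fold), Elovl6 (1.49-fold), Scd1 (1.31-fold) and Fads2 (1.23-fold). A gene is called when its edgeR quasi-likelihood test gives an adjusted p under 0.05, by Benjamini-Hochberg over all 14356 genes. The background differs between the days: 5.94% of all genes tested rose and 3.90% fell on day 2, against 22.0 and 20.7% on day 2.5, which is 9.84% of genes called on day 2 and 42.8% on day 2.5. The median log2 fold change of the 10 genes was 0.21 on day 2 and 0.15 on day 2.5, beside -0.0049 and -0.0096 for all genes tested. All 10 fold changes were positive on day 2 and 9 on day 2.5. The 3 groups without overlap on day 2 were those of Acly, Elovl6 and Scd1, all higher, where 14.9% of all genes had such a gap upward and 14.5% downward. On day 2.5 the gap was upward for 7 genes and downward for Acsl3, where the background was 26.7% upward and 26.2% downward. The spread behind each p-value is that between libraries and may be technical: the labels speak of independent pairs without saying what a replicate number marks.

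These counts depend on single libraries. On day 2 the count of 3 was 1 without control replicate 3, without Trim33-deficient replicate 2 or without Trim33-deficient replicate 3, and 7 without control replicate 2, the library with high hypoxia genes. Over all genes tested, 3.87, 5.46, 6.05 and 9.23% were called in either direction in these fits, in that order, against 9.84% with all libraries. Of all genes, 400, 546, 569 and 790 rose in these fits, against 853 with all libraries. The count of members that rose was also 7 without the 3 libraries that stood apart (11.2% of all genes called in either direction), and 4 by DESeq2 (11.4%). No member fell on day 2 at an unadjusted p under 0.05 or by DESeq2. On day 2.5 the count of 6 was 2 without control replicate 1 or without Trim33-deficient replicate 3, 3 without control replicate 3 or without Trim33-deficient replicate 2, and 7 without the 3 libraries that stood apart. Over all genes tested, 40.6, 38.7, 33.7, 34.9 and 45.5% were called in either direction in these fits, in that order, against 42.8% with all libraries. Of all genes, 3038, 2913, 2581, 2689 and 3440 rose, against 3165 with all libraries. The count of 0 that fell on day 2.5 was 1, Acsl3, at an unadjusted p under 0.05 and by DESeq2.

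**Figure D2:**
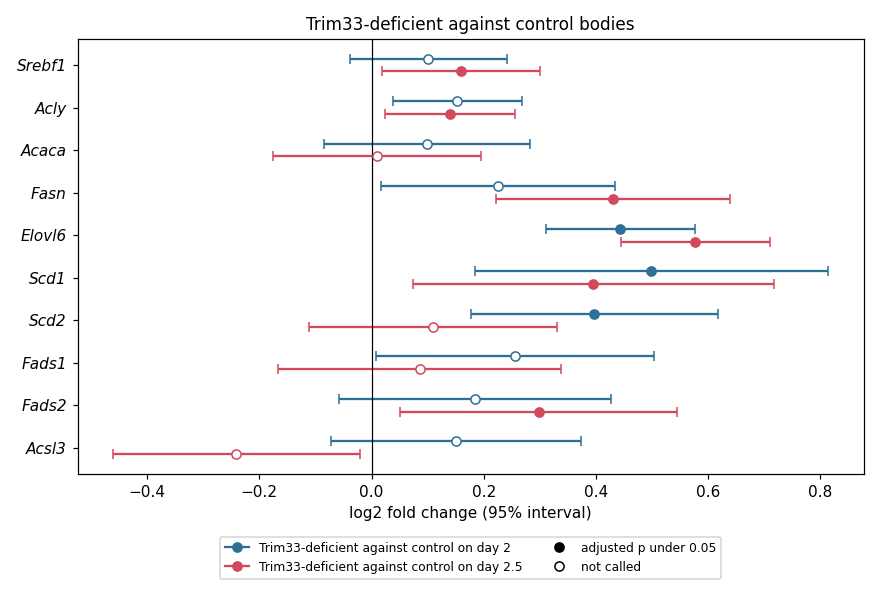
Log2 fold change of Trim33-deficient against control bodies (horizontal axis) for each of the 10 genes (vertical axis), with 95% intervals from the edgeR fit; blue is day 2 and red day 2.5, and filled points passed an adjusted p under 0.05. Elovl6 has the highest value on day 2.5 (0.58), Acsl3 is positive on day 2 (0.15) and negative on day 2.5 (-0.24).

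The regulator Srebf1 was at 80.2, 91.6 and 81.0 CPM in the day 2 control libraries and at 88.8, 91.0 and 91.3 CPM in the Trim33-deficient libraries of that day. Control replicate 2 was the highest of the 6, so the groups overlapped. The log2 fold change was 0.10 ± 0.06 (SE; 95% interval -0.04 to 0.24, adjusted p = 0.326, edgeR). On day 2.5 Srebf1 was at 69.2, 76.9 and 71.5 CPM in control and 77.9, 81.9 and 83.0 CPM in Trim33-deficient libraries. Every Trim33-deficient library was now above every control library, and Srebf1 rose by a log2 fold change of 0.16 ± 0.06 (0.02 to 0.30, adjusted p = 0.0441). That call ended under 9 of 21 alternatives, with adjusted p up to 0.149: with upper-quartile factors, with no filter on low counts, by DESeq2, and on leaving out replicate 2 or 3 of either Trim33-deficient group or replicate 1 or 3 of day 2.5 control.

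Of the enzymes that supply the units, Acly, which makes cytosolic acetyl-CoA, was at 631, 664 and 597 CPM in day 2 control libraries and 679, 711 and 713 CPM in Trim33-deficient libraries. The groups did not overlap, and the log2 fold change was 0.15 ± 0.05 (0.04 to 0.27) with an adjusted p of 0.0641 by edgeR. Acly passed on day 2 without day 2 control replicate 2 (0.19, adjusted p = 0.0304), without day 2.5 control replicate 2 (0.16, adjusted p = 0.0483), without the 3 libraries that stood apart (0.22, adjusted p = 0.00530) and by DESeq2 (0.15, adjusted p = 0.0407). On day 2.5 it was at 537, 537 and 561 CPM in control and 585, 586 and 630.4 CPM in Trim33-deficient libraries. All 3 Trim33-deficient libraries were above the control libraries, and Acly rose by 0.14 ± 0.05 (0.02 to 0.25, adjusted p = 0.0328). The adjusted p of that rise was between 0.0504 and 0.141 without day 2.5 control replicate 1 or 2 or without day 2.5 Trim33-deficient replicate 2 or 3, and 0.0605 with upper-quartile factors for Acly. Acaca, the acetyl-CoA carboxylase, was at 45.8, 53.6 and 46.7 CPM against 49.3, 52.0 and 54.9 CPM on day 2, and at 40.4, 48.6 and 44.1 CPM against 44.0, 46.5 and 43.2 CPM on day 2.5. Its groups overlapped on both days. The log2 fold changes were 0.10 ± 0.08 (-0.08 to 0.28, adjusted p = 0.480) and 0.01 ± 0.08 (-0.17 to 0.19, adjusted p = 0.934).

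Fasn, the synthase itself, was at 1259.9, 996 and 1022 CPM in day 2 control libraries and 1297, 1196 and 1341 CPM in Trim33-deficient libraries. Control replicate 1 lay above Trim33-deficient replicate 2, so the groups overlapped, and the log2 fold change of 0.23 ± 0.09 (0.02 to 0.43) had an adjusted p of 0.136 by edgeR. Without control replicate 1, Fasn was 0.34 higher with an adjusted p of 0.0173. On day 2.5 Fasn was at 979.7, 796 and 852 CPM in control and 1138, 1158 and 1245 CPM in Trim33-deficient libraries. The lowest Trim33-deficient library was above the highest control library, and Fasn rose by 0.43 ± 0.09 on the log2 scale, 1.35-fold (0.22 to 0.64, adjusted p = 0.00182). Over 21 alternatives this rise was 0.37 to 0.52 with adjusted p of at most 0.0360.

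Elovl6, the elongase that turns palmitate into stearate, had the smallest adjusted p of the 10 genes on both days. It was at 234, 215 and 225 CPM in day 2 control and 279, 326 and 311 CPM in day 2 Trim33-deficient libraries. No libraries overlapped, and Elovl6 rose by 0.44 ± 0.06 on the log2 scale, 1.36-fold (0.31 to 0.58, adjusted p = 0.000330, edgeR). On day 2.5 it was at 237, 219 and 220.3 CPM in control and 328, 333 and 349 CPM in Trim33-deficient libraries. Again no libraries overlapped, and Elovl6 rose by 0.58 ± 0.06, 1.49-fold (0.44 to 0.71, adjusted p = 2.21e-06). Under all 21 alternatives Elovl6 kept its call on both days, between 0.39 and 0.50 on day 2 and between 0.55 and 0.61 on day 2.5.

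Among the desaturases, Scd1, which makes monounsaturated from saturated chains, was at 108, 141 and 98.1 CPM in day 2 control and 144, 179 and 167 CPM in day 2 Trim33-deficient libraries. The groups were separate by a small margin, since control replicate 2 came close to Trim33-deficient replicate 1. Scd1 rose by 0.50 ± 0.14 on the log2 scale, 1.41-fold (0.18 to 0.81, adjusted p = 0.0426, edgeR), and by 0.75 without the 3 libraries that stood apart (adjusted p = 8.70e-05). On day 2.5 Scd1 was at 79.1, 89.6 and 73.4 CPM in control and 97.8, 100.0 and 119 CPM in Trim33-deficient libraries. Again every Trim33-deficient library was above the control libraries, and the rise was 0.40 ± 0.14, 1.31-fold (0.07 to 0.72, adjusted p = 0.0406). Both Scd1 calls were lost under many alternatives, 9 of 21 on day 2 and 7 of 21 on day 2.5. On day 2 the adjusted p of Scd1 was 0.0562 to 0.132 without any of day 2 control replicates 1 and 3, the 3 day 2 Trim33-deficient replicates, day 2.5 control replicate 1 and day 2.5 Trim33-deficient replicate 2, at log2 values of 0.40 to 0.58. On day 2.5 that of Scd1 was 0.0540 to 0.136 on leaving out replicate 1 of day 2 control, replicate 3 of day 2 Trim33-deficient, replicate 1 or 3 of day 2.5 control, or replicate 2 or 3 of day 2.5 Trim33-deficient bodies, at log2 values of 0.30 to 0.43.

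Scd2, the more abundant of the pair here, was at 596, 717 and 552 CPM in day 2 control and 699, 899 and 856 CPM in day 2 Trim33-deficient libraries. Control replicate 2 lay above Trim33-deficient replicate 1, 2 of the libraries that stood apart, so the groups overlapped. Scd2 rose by 0.40 ± 0.10 on the log2 scale, 1.32-fold (0.18 to 0.62, adjusted p = 0.0221, edgeR), and by 0.62 without the 3 libraries that stood apart (adjusted p = 2.09e-08). The Scd2 call ended, with an adjusted p of 0.0688 to 0.0897, without day 2 control replicate 1 or 3, without day 2 Trim33-deficient replicate 2 or 3, or with the day 2 libraries fitted alone. On day 2.5 Scd2 was at 489, 523 and 496 CPM in control and 542, 532 and 552 CPM in Trim33-deficient libraries. The Trim33-deficient libraries were all higher, by little: the log2 fold change was 0.11 ± 0.10 (-0.11 to 0.33, adjusted p = 0.380), and without the 3 libraries that stood apart Scd2 passed at 0.14 (adjusted p = 0.0104).

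Fads1, the delta-5 desaturase, was at 94.3, 134 and 103 CPM in day 2 control and 123, 141 and 132 CPM in day 2 Trim33-deficient libraries. Control replicate 2 lay above Trim33-deficient replicates 1 and 3, and the log2 fold change was 0.26 ± 0.11 (0.01 to 0.50, adjusted p = 0.161, edgeR). Without that control library Fads1 was 0.42 higher with an adjusted p of 0.00297, and without the 3 libraries that stood apart it was 0.47 higher (adjusted p = 6.86e-05). On day 2.5 Fads1 was at 82.4, 95.9 and 90.1 CPM in control and 94.997, 89.5 and 99.6 CPM in Trim33-deficient libraries. These groups overlapped, with a log2 fold change of 0.09 ± 0.11 (-0.17 to 0.34, adjusted p = 0.558).

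Fads2, the delta-6 desaturase, was at 137, 170.0 and 127 CPM in day 2 control and 145, 176 and 170.4 CPM in day 2 Trim33-deficient libraries. The groups overlapped, and the log2 fold change was 0.18 ± 0.11 (-0.06 to 0.43, adjusted p = 0.310, edgeR). Without day 2 control replicate 2 Fads2 was 0.32 higher (adjusted p = 0.0297), and without the 3 libraries that stood apart 0.40 higher (adjusted p = 0.000281). On day 2.5 Fads2 was at 93.8, 109 and 97.7 CPM in control and 122, 114 and 132 CPM in Trim33-deficient libraries. All Trim33-deficient libraries were above the control libraries, and Fads2 rose by 0.30 ± 0.11, 1.23-fold (0.05 to 0.55, adjusted p = 0.0396). The adjusted p of Fads2 was 0.0507 to 0.130 without day 2 control replicate 1, day 2.5 control replicate 1 or 3, or day 2.5 Trim33-deficient replicate 1 or 3, and 0.0710 with no filter on low counts.

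Acsl3, the long-chain acyl-CoA synthetase, was the member whose sign differed between the days. On day 2 it was at 88.4, 107 and 80.8 CPM in control and 91.1, 107 and 108 CPM in Trim33-deficient libraries. These overlapped, and the log2 fold change was 0.15 ± 0.10 (-0.07 to 0.37, adjusted p = 0.368, edgeR). Without day 2 control replicate 2 Acsl3 passed on day 2 at 0.27 (adjusted p = 0.0479), and without the 3 libraries that stood apart at 0.35 (adjusted p = 0.000823). On day 2.5 it was at 111, 134 and 118 CPM in control and 105, 101 and 99.8 CPM in Trim33-deficient libraries. The control libraries were all higher, and the log2 fold change was -0.24 ± 0.10 (-0.46 to -0.02, adjusted p = 0.0551). Acsl3 passed as a fall on day 2.5 under 10 of 21 alternatives, among them DESeq2 (adjusted p = 0.0421) and the fits without day 2 control replicate 2 (adjusted p = 0.0109), day 2 control replicate 3 (adjusted p = 0.0360), day 2 Trim33-deficient replicate 1 (adjusted p = 0.0460) or day 2.5 control replicate 1 (adjusted p = 0.0295). Without the 3 libraries that stood apart the Acsl3 value on day 2.5 was -0.16 (adjusted p = 0.0172).

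Whether the effect of Trim33 loss differed between the days was tested as the interaction of genotype and day, given as the day 2.5 log2 fold change minus that of day 2. No member passed this test by edgeR or by DESeq2, with 1 at an unadjusted p under 0.05, where 4.01% of all genes tested passed, 2.77% upward and 1.24% downward. The lowest value was that of Acsl3, -0.39 ± 0.14 (-0.70 to -0.08, adjusted p = 0.120). Scd2 followed at -0.29 ± 0.14 (-0.60 to 0.02, adjusted p = 0.248), and the highest was Fasn at 0.20 ± 0.13 (-0.09 to 0.50, adjusted p = 0.388). For Elovl6 the difference between the days was 0.13 ± 0.08 (-0.05 to 0.32, adjusted p = 0.368), for Scd1 it was -0.10 ± 0.19 (-0.55 to 0.35, adjusted p = 0.811). Without day 2 control replicate 2 the count was 3, all negative: Scd2 at -0.40 (adjusted p = 0.0325), Fads1 at -0.34 (adjusted p = 0.0455) and Acsl3 at -0.52 (adjusted p = 0.0107). The same 3 genes passed without the 3 libraries that stood apart, with adjusted p of 3.49e-05, 0.0167 and 0.000232. Of all genes tested, 8.35% passed without day 2 control replicate 2 and 13.4% without the 3 libraries, against 4.01% with all libraries.

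From day 2 to day 2.5, Acly and the desaturases Scd1, Scd2 and Fads2 fell in both genotypes. In control bodies 6 fell, namely Srebf1, Acly, Fasn, Scd1, Scd2 and Fads2, and Acsl3 rose, where 7.91% of all genes tested fell and 8.20% rose. In Trim33-deficient bodies 5 fell, namely Acly, Scd1, Scd2, Fads1 and Fads2, and none rose, where 6.93% of all genes fell and 9.09% rose. These time comparisons use the same libraries as the genotype comparisons, so the values are given side by side and no overlap is drawn. The median log2 fold change of the 10 genes was -0.26 in control and -0.23 in Trim33-deficient bodies, beside -0.0025 and -0.0044 for all genes. Groups did not overlap for 6 falls and 1 rise in control, where the background was 15.0% downward and 16.2% upward, and for 7 falls and 1 rise in Trim33-deficient bodies, where it was 19.3 and 19.4%. In Trim33-deficient bodies 1 member was higher at an unadjusted p under 0.05 and none by DESeq2. The count of 6 falls in control was 3 on leaving out replicate 1 of day 2.5 control, 2 on leaving out its replicate 3 and 5 without the 3 libraries that stood apart. In these fits 14.9, 9.85 and 16.4% of all genes were called in either direction, in that order, against 16.1% with all libraries. The rise of Acsl3 was lost without day 2 control replicate 1 or 3. The count of 5 falls in Trim33-deficient bodies was 4 to 7 when single libraries were left out and 7 without the 3 libraries. Of all genes tested in this comparison, 995 fell with all libraries and 1761 without the 3 libraries, where 25.5% were called in either direction.

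**Figure D3:**
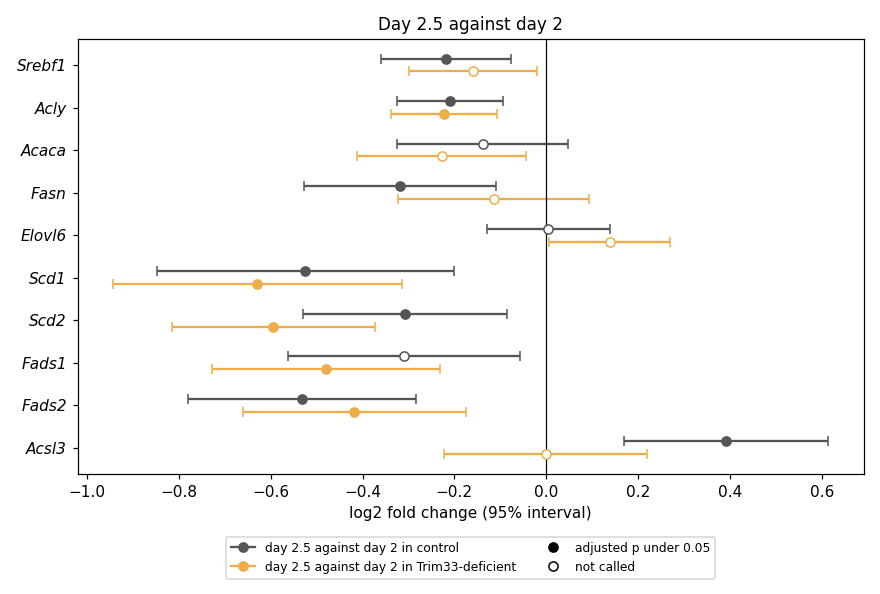
Log2 fold change of day 2.5 against day 2 (horizontal axis) for each of the 10 genes (vertical axis), with 95% intervals from the edgeR fit; grey is control, yellow is Trim33-deficient, and filled points passed an adjusted p under 0.05. Acsl3 is at 0.39 in control and its interval in Trim33-deficient bodies spans 0.

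Each of the 4 desaturases fell in at least 1 genotype. Scd1 fell by 0.52 ± 0.14 on the log2 scale in control (1.44-fold, adjusted p = 0.0276, edgeR) and by 0.63 ± 0.14 in Trim33-deficient bodies (1.55-fold, adjusted p = 0.0108). Scd2 fell by 0.31 ± 0.10 in control (adjusted p = 0.0454) and by 0.59 ± 0.10 in Trim33-deficient bodies (1.51-fold, adjusted p = 0.00127). Fads2 fell by 0.53 ± 0.11 (1.45-fold, adjusted p = 0.00571) and by 0.42 ± 0.11 (1.34-fold, adjusted p = 0.0186), in the same order. Every day 2.5 library was below every day 2 library of its genotype for these 3 genes. Fads1 fell by 0.48 ± 0.11 in Trim33-deficient bodies (1.39-fold, adjusted p = 0.0103), and its groups overlapped in control, at -0.31 ± 0.11 (-0.56 to -0.06, adjusted p = 0.0742). The control decline of Scd2 ended under 11 of 20 alternatives, at adjusted p up to 0.121, among them the fits without any one day 2.5 library or without day 2 control replicate 1 or 2 or day 2 Trim33-deficient replicate 3. That of Scd1 in control ended without day 2 control replicate 1 or day 2.5 control replicate 1 or 3, at adjusted p up to 0.0926, and that of Fads2 in Trim33-deficient bodies on leaving out replicate 2 or 3 of day 2 or replicate 1 or 2 of day 2.5 in that genotype, at up to 0.0792. Fads1 passed in control without day 2 control replicate 1 (-0.41, adjusted p = 0.0162).

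Among the earlier steps, Acly fell by 0.21 ± 0.05 in control (adjusted p = 0.00981, edgeR) and by 0.22 ± 0.05 in Trim33-deficient bodies (adjusted p = 0.00688), and kept both calls under all alternatives. Fasn fell by 0.32 ± 0.09 in control (1.25-fold, adjusted p = 0.0291), and in Trim33-deficient bodies its groups overlapped, at -0.11 ± 0.09 (-0.32 to 0.09, adjusted p = 0.424). Leaving out day 2 control replicate 1 or day 2.5 control replicate 2 or 3 ended the Fasn call, at adjusted p of 0.0962, 0.112 and 0.0978, as did leaving out the 3 libraries that stood apart (adjusted p = 0.144). Srebf1 fell by 0.22 ± 0.06 in control (adjusted p = 0.0237) and was at -0.16 ± 0.06 in Trim33-deficient bodies (adjusted p = 0.0850). The Srebf1 call in control ended without day 2 control replicate 2 or day 2.5 control replicate 1 or 3, at adjusted p of 0.0931, 0.0779 and 0.0800. In Trim33-deficient bodies Srebf1 passed without day 2 control replicate 2 (adjusted p = 0.0448) and without the 3 libraries that stood apart (-0.17, adjusted p = 0.0212). Acaca was at -0.14 ± 0.08 (adjusted p = 0.263) and -0.23 ± 0.08 (adjusted p = 0.0625). In Trim33-deficient bodies Acaca passed as a fall without day 2 control replicate 2 (adjusted p = 0.0325), day 2.5 control replicate 1 (adjusted p = 0.0447) or day 2.5 control replicate 2 (adjusted p = 0.0401), and without the 3 libraries that stood apart (-0.26, adjusted p = 0.00580). Elovl6 was at 0.0044 ± 0.06 in control (-0.13 to 0.14, adjusted p = 0.969) and at 0.14 ± 0.06 in Trim33-deficient bodies (0.01 to 0.27, adjusted p = 0.113), where all 3 day 2.5 libraries were above those of day 2. Acsl3 rose by 0.39 ± 0.10 in control (1.31-fold, adjusted p = 0.0144) with no overlap, and its interval in Trim33-deficient bodies ran from -0.22 to 0.22 (adjusted p = 0.996). Without day 2 control replicate 1 or 3 the adjusted p of the Acsl3 rise was 0.0533 or 0.0651.

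Within a group, single libraries were high or low for several members together. Day 2 control replicate 2 was the highest of its group for 8 of the 10 genes and the lowest for Fasn and Elovl6, and day 2.5 control replicate 2 was the highest for 7 and the lowest for Acly, Fasn and Elovl6. These are the libraries with the highest hypoxia gene levels. Day 2 Trim33-deficient replicate 1, with high Rn45s, was the lowest of its group for 9 genes. Day 2.5 Trim33-deficient replicate 3 was the highest of its group for 8.

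Ratios of counts between members within a library do not depend on scaling, and 6 were computed with no test. On day 2 the genotypes overlapped in all 6. On day 2.5 they were separate in 5: Scd1 to Scd2, Fads1 to Fads2, Elovl6 to Fasn, Scd2 to Fasn and Acsl3 to Acly. Of single genes tested, 26.7% had such a gap upward and 26.2% downward on that day. No share was computed over other gene pairs. Several of the pairs share Fasn, so the ratios are not separate observations. The log2 ratio of Scd1 to Scd2 was -2.76 to -2.54 in day 2.5 control and -2.47 to -2.21 in day 2.5 Trim33-deficient libraries, higher in the latter. That of Fads1 to Fads2 was -0.16 ± 0.04 (SD, n = 3) in control and -0.37 ± 0.03 in Trim33-deficient libraries, lower in the latter. The log2 ratio of Scd2 to Fasn was -0.80 ± 0.20 in control and -1.12 ± 0.05 in Trim33-deficient libraries on day 2.5, and on day 2 it was -0.81 ± 0.31 and -0.65 ± 0.24. Acsl3 to Acly moved from -2.79 ± 0.13 on day 2 to -2.18 ± 0.15 on day 2.5 in control and from -2.79 ± 0.10 to -2.56 ± 0.09 in Trim33-deficient libraries. Elovl6 to Fasn was -1.95 ± 0.09 in control and -1.81 ± 0.02 in Trim33-deficient libraries on day 2.5.

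**Figure D4:**
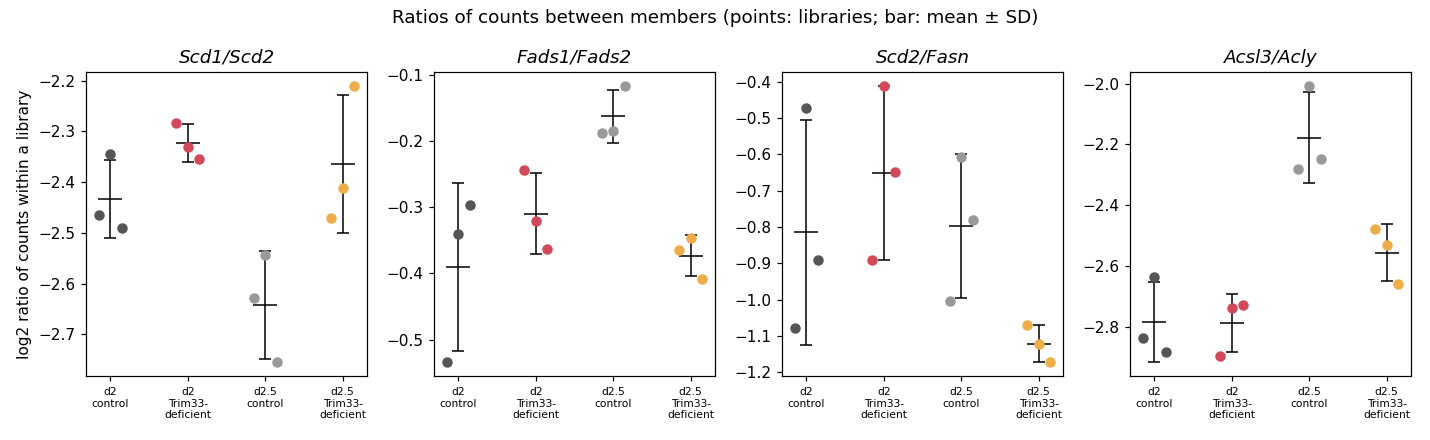
Log2 ratio of the counts of gene pairs within a library (vertical axes, each with its own range) by group (horizontal axes). Points are libraries and bars are mean ± SD of 3. On day 2.5 the genotypes do not overlap in any of the 4 pairs, for example -2.76 to -2.54 against -2.47 to -2.21 for Scd1 to Scd2. Of single genes tested, 26.7% had a gap upward and 26.2% downward on that day.

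Among other genes of fatty acid synthesis, elongation and desaturation, 4 of 22 tested rose and none fell on day 2, with a median log2 fold change of 0.04. Of all genes tested, 5.94% rose and 3.90% fell on that day. None of the 22 was lower at an unadjusted p under 0.05 or by DESeq2. The most significant were Hsd17b12, the ketoacyl-CoA reductase of the elongation cycle (0.22, adjusted p = 0.0104, edgeR), Cyb5r3, which passes electrons to the desaturases through cytochrome b5 (0.22, adjusted p = 0.0157), and Slc25a1, the mitochondrial citrate carrier that feeds Acly (0.25, adjusted p = 0.0208). Their count of 4 was 1 or 2 without any one of day 2 control replicates 1 and 3 or the day 2 Trim33-deficient replicates. On day 2.5, 8 of the 22 rose and 5 fell, with a median of -0.12, where 22.0% of all genes tested rose and 20.7% fell. Scd3, a further stearoyl-CoA desaturase, was at 7.42, 4.09 and 5.67 CPM in day 2.5 control and 18.0, 20.04 and 13.1 CPM in Trim33-deficient libraries. It rose by 1.55 ± 0.20 on the log2 scale on that day (adjusted p = 2.41e-05), and was at -0.17 on day 2 (adjusted p = 0.708). Scd3 has far fewer counts than Scd1 or Scd2. Of its 3440 windows of 50 bases, 6.69% also occur in another gene, 167 of them in Scd1 and 136 in Scd2. The part of shared reads in its values was not tested. Elovl1, an elongase of saturated very long chains, rose by 0.52 ± 0.08 (adjusted p = 6.05e-05) and Cyb5r3 by 0.31 ± 0.05 (adjusted p = 0.000168).

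Among 16 genes of SREBP processing and its transcription partners, 2 rose and 1 fell on day 2, and 5 rose and 3 fell on day 2.5. Of all genes tested, 5.94% rose and 3.90% fell on day 2, and 22.0% rose and 20.7% fell on day 2.5. Srebf2, the sister gene of Srebf1, rose by 0.48 ± 0.06 on day 2 (adjusted p = 0.000232, edgeR) and 0.52 ± 0.06 on day 2.5 (adjusted p = 9.24e-06). Insig1, which retains the SREBP escort protein in the endoplasmic reticulum and is itself an SREBP target, rose by 0.59 ± 0.13 (adjusted p = 0.0162) and 0.98 ± 0.13 (adjusted p = 0.000113). Nfya, the NF-Y subunit, fell by 0.22 ± 0.05 (adjusted p = 0.0141) and by 0.32 ± 0.05 (adjusted p = 0.000111). The count of 2 that rose on day 2 was 1 without day 2 control replicate 3 or day 2 Trim33-deficient replicate 1, the 1 that fell was 0 without day 2 control replicate 3 or day 2 Trim33-deficient replicate 3, and the 5 that rose on day 2.5 were 3 without day 2.5 Trim33-deficient replicate 1.

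In the sterol branch, driven by the same factor family, most genes were higher without Trim33. Of 20 sterol synthesis and uptake genes tested, 16 rose on day 2 and 17 on day 2.5, and none fell. Among all genes tested 5.94% rose on day 2 and 22.0% on day 2.5. The median log2 fold changes of the sterol genes were 0.41 and 0.48, against 0.21 and 0.15 for the 10 fatty acid genes, a difference that was not tested. One example was Cyp51, lanosterol demethylase, at 0.77 on day 2 and 1.19 on day 2.5. The count that rose was 11 to 17 on day 2 and 16 to 17 on day 2.5 when single libraries were left out. No sterol gene was lower at an unadjusted p under 0.05 or by DESeq2 on either day, and 1 fell on day 2.5 without day 2 Trim33-deficient replicate 1 or without the 3 libraries that stood apart.

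The counts for genes that use fatty acids stand against 5.94% of all genes tested that rose and 3.90% that fell on day 2, and 22.0 and 20.7% on day 2.5. Of 20 fatty acid oxidation genes, 3 rose and 1 fell on day 2 and 8 rose and 4 fell on day 2.5. Cpt1a, the mitochondrial entry enzyme of liver type, rose by 0.54 ± 0.15 (adjusted p = 0.0339, edgeR) and 1.28 ± 0.14 (adjusted p = 1.36e-05). The day 2 count of 3 was 0 without any one of day 2 control replicates 1 and 3, day 2 Trim33-deficient replicates 1 and 2 or day 2.5 Trim33-deficient replicate 2, and 1 on leaving out replicate 2 of day 2 control, replicate 3 of day 2 Trim33-deficient, replicate 3 of day 2.5 control or replicate 1 of day 2.5 Trim33-deficient bodies. The 1 that fell, Hadh, was lost without any one of 9 libraries. The 8 that rose on day 2.5 were 5 without day 2.5 Trim33-deficient replicate 1. Of 16 other acyl-CoA synthetases and carriers, 1 rose and 1 fell on day 2, and 6 rose and 4 fell on day 2.5. The carriers Fabp3 (1.18, adjusted p = 0.000239) and Fabp5 (-0.99, adjusted p = 0.000217) passed in opposite directions on day 2.5. Of 17 glycerolipid and lipid droplet genes, 1 rose on day 2, and 4 rose and 3 fell on day 2.5, with the acyltransferases Agpat9 at 1.38 (adjusted p = 7.35e-05) and Agpat3 at -0.46 (adjusted p = 0.000185). The single day 2 calls of these last groups were lost without any one of day 2 control replicate 3 or day 2 Trim33-deficient replicates 1 and 2, among others.

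**Figure D5:**
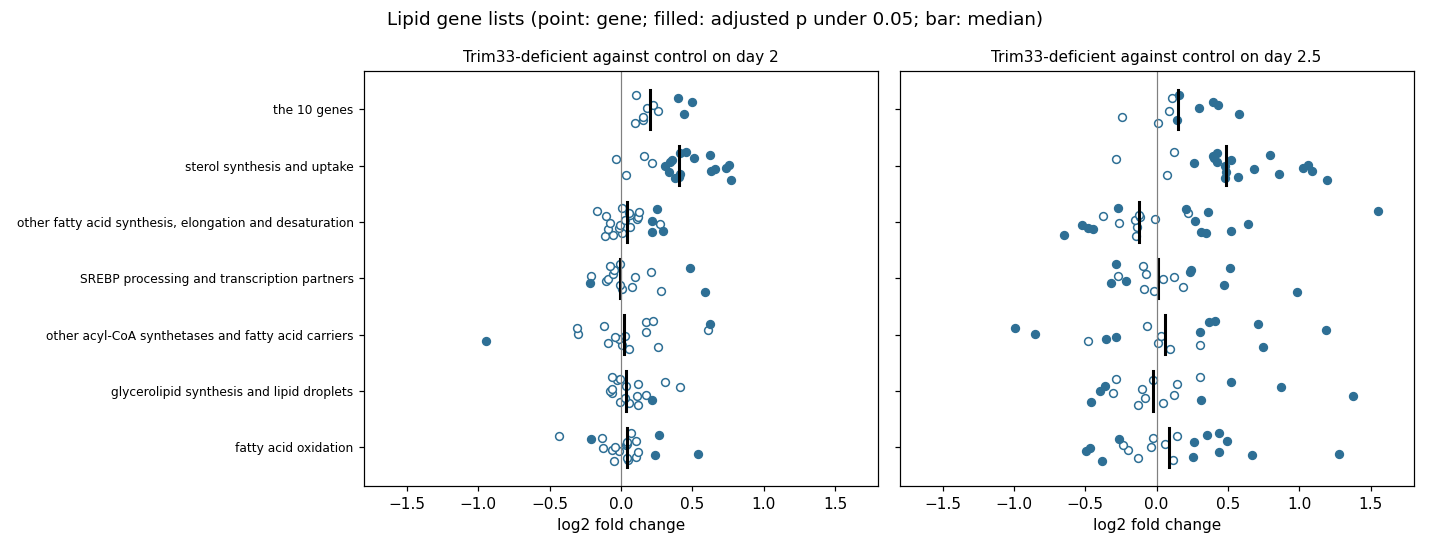
Log2 fold change of Trim33-deficient against control bodies (horizontal axis; day 2 left, day 2.5 right) for the 10 genes and 6 lists of lipid genes (vertical axis). Each point is a gene, filled where the adjusted p was under 0.05, and bars are medians: 0.21 and 0.15 for the 10 genes and 0.41 and 0.48 for the sterol genes.

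Genes whose profile over the 12 libraries was closest to that of a member were found among 9520 genes with a mean of at least 10 CPM, by the root mean square difference of centred log2 CPM. For Scd2 the closest were Fads1 (0.10), Fads2 (0.11) and Mvd (0.12), a sterol synthesis enzyme, where the median gene was at 0.32. For Fasn they were Adat3 (0.07), Pcnt (0.07) and 2700081O15Rik (0.08), where the median was 0.27, and no other member was among them. The libraries share their depth and preparation in these profiles, and likeness is given as a description.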

How the data were processed

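RNA was measured in 12 libraries, 3 in each of 4 groups. The deposited files hold whole-number counts per gene symbol, which the authors deposited. The submitters' processing notes name mm9 as the build and STAR, HTSeq and DESeq as tools. Versions, annotation, strandedness and the counting of multi-mapped reads were not given in the sources used here, so near-identical, overlapping and antisense genes are uncertain. The 5 rows per file that name no gene were left out. Of all counts in the files 55.9 to 60.5% were in no feature, 0.144 to 0.189% were ambiguous and 39.3 to 43.9% were assigned. The other rows that name no gene held no counts, which does not tell how multi-mapped reads were treated. In 1 library 27 gene names had become dates and were restored by row position.

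The main test was the quasi-likelihood F test of edgeR 4.0.16 with limma 3.58.1 in R 4.3.3. It used TMM factors, the edgeR filter on low counts by group, a robust fit of 4 group means to all 12 libraries and 8 residual degrees of freedom, without a replicate block. The Benjamini-Hochberg method was applied over all 14356 genes tested in each of 5 comparisons. Standard errors were derived from F statistics, and 95% intervals use 8 degrees of freedom. CPM and floors of 3 counts use TMM-scaled library sizes and cover counting error only. DESeq2 1.42.0 was an alternative. The scripts were tested on simulated data.

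The 10 genes and all lists were chosen with earlier results of these data known, so their counts are descriptions. The text names Trim33, the 10 genes, up to 3 called genes per list (those with the smallest adjusted p), and the 3 closest profiles to Fasn and Scd2. The list genes named are part of what that rule returned, and some are not reported here. Other settings numbered 20: other factors and filters, DESeq2, fits on the compared libraries, replicate blocks and each library left out. The fit without 3 libraries that stood apart was added after seeing the data. Exonic lengths, overlaps and 50-base windows come from GENCODE M21 and promoters from RefSeq on GRCm38.p6, not from mm9.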

Additional observations from a re-analysis of the deposited data

Results flagged for a closer look

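For 4 of the list genes named above the effect of Trim33 loss differed between day 2 and day 2.5 by the interaction test of edgeR, given here as the day 2.5 log2 fold change minus that of day 2. Of all genes tested, 4.01% passed. On the full lists, 4 of 20 sterol genes, 2 of 20 oxidation genes and 1 of 22 other fatty acid synthesis genes passed upward. Of 17 glycerolipid genes, 1 passed upward and 1 downward. None passed among 16 SREBP processing genes or 16 other acyl-CoA synthetases and carriers. For the sterol gene Cyp51 the difference was 0.42 (adjusted p = 0.00719). The desaturase Scd3 had 1.72 (adjusted p = 0.00993). The acyltransferases Agpat9 and Agpat3 had 1.27 (adjusted p = 0.0291) and -0.45 (adjusted p = 0.0305), but these calls were not kept in most fits with 1 library left out. Agpat9 no longer passed on leaving out any one of 8 libraries, with adjusted p of 0.0503 to 0.0905, and Agpat3 on leaving out any one of 7, with 0.0589 to 0.105. Both ended without replicate 1 or 3 of day 2 control, replicate 2 or 3 of day 2 Trim33-deficient, replicate 2 of day 2.5 control, or replicate 1 or 2 of day 2.5 Trim33-deficient bodies, and Agpat9 also without replicate 3 of day 2.5 control. In these 8 fits the share of all genes that passed was 0.816 to 2.60%, against 4.01% with all libraries. None of the 10 fatty acid synthesis genes passed this test by edgeR or DESeq2, with 1 at an unadjusted p under 0.05. Without day 2 control replicate 2, 3 of them passed, where 8.35% of all genes tested did. Groups of 3 libraries are too small for a test of single outlying libraries.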

How the results depend on the processing

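Over the 10 genes, 5 comparisons and 21 alternatives, 1020 values were computed: 905 kept their side of the threshold, 72 lost a call, 43 gained one and 0 changed sign as a called value. The calls kept under every alternative were Elovl6 on day 2, Fasn and Elovl6 on day 2.5, Acly and Fads2 over time in control, and Acly, Scd1, Scd2 and Fads1 over time in Trim33-deficient bodies. The count that rose on day 2, 3, was 1 with the compared libraries alone, 7 without the 3 libraries that stood apart and 1 to 7 with single libraries left out. The count that rose on day 2.5, 6, was 3 with no filter on low counts and 2 to 6 with single libraries left out. The count that fell on day 2.5, 0, was 1 with upper-quartile factors, DESeq2, the compared libraries alone, either replicate block or without the 3 libraries, and 0 to 1 with single libraries left out. In control over time the rise of 1 was 0 and the 6 falls were 3 with the compared libraries alone, and 0 to 1 and 2 to 6 with single libraries left out. In Trim33-deficient bodies the 5 falls were 4 to 7 with single libraries left out. For the interaction, the 0 that fell was 1 with the replicate block, 3 without the 3 libraries and 0 to 3 with single libraries left out. The share of all genes called moved as well. With no filter on low counts it was 30.5% of 19581 genes on day 2.5, against 42.8% of 14356 in the main fit. The number of genes that rose there was 3127, against 3165. With the compared libraries alone the share called on day 2 was 6.90%, against 9.84%. Over time in control 664 genes fell with the compared libraries alone, against 1136 in the main fit. With single libraries left out the share called was 3.53 to 11.1% on day 2 and 33.0 to 45.1% on day 2.5. It was 8.47 to 16.4% over time in control, 7.57 to 19.1% over time in Trim33-deficient bodies and 0.816 to 8.35% for the interaction. The cause of these changes was not tested. Of the same-numbered pairs of libraries, 1 of 6 within a day (-0.08 to 0.19) and 5 of 18 in all had correlated deviations over 0.1. Between the days in control the 3 pairs were at 0.42, 0.51 and 0.05. Not every pair was over 0.1, so the number was not taken as a pairing. With the replicate block these gained a call: Fasn on day 2 (0.23, adjusted p = 0.0389), Acsl3 on day 2.5 (-0.24, adjusted p = 0.0176) and in the interaction (-0.39, adjusted p = 0.0365), Fads1 over time in control (-0.30, adjusted p = 0.0240) and Acaca over time in Trim33-deficient bodies (-0.23, adjusted p = 0.0275). Fads1 on day 2 passed with the block within day (0.26, adjusted p = 0.0417). With 3 libraries per group, fold changes near 1.2 lay close to the threshold.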
